A study of Mus musculus with 8 samples.

Results

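Potassium channel genes were followed across embryonic mouse diaphragm by spatial transcriptomics on 10x Genomics Visium slides for formalin-fixed tissue. The set held every gene whose symbol begins with Kcn followed by a letter and further letters or digits, 93 of the 19465 genes in the probe set. Over all sections 71 of them reached 100 UMIs (unique molecular identifiers, 1 per captured molecule) and count as named below, though not all appear in the text. The other 22 stayed under that count, and 0 lacked UMIs altogether.

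The series held 8 sections, each of 1 diaphragm. Controls carried at least 1 expressing allele each of CaV1.1 and of β-catenin, and comprised 3 sections at E14.5 and 2 at E18.5. CaV1.1-/- (dysgenic) embryos, which lack the pore subunit of the skeletal muscle voltage-gated calcium channel in every cell, gave 1 section at E14.5 and 1 at E18.5. The bCat cKO gave 1 section at E18.5; it lacks β-catenin in skeletal muscle alone, through floxed alleles and a Cre driven by the human skeletal actin promoter.

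Potassium channels set the resting potential of the muscle fiber and repolarize it after an action potential. Inward rectifiers hold the membrane near rest and, with a sulfonylurea receptor, form the ATP-sensitive channel. Voltage-gated channels open on depolarization, calcium- and sodium-activated channels follow the ions inside the cell, two-pore channels carry background current, and auxiliary subunits alter the gating or trafficking of pore subunits. Of all UMIs on these genes, voltage-gated pore subunits (40 genes, 35 named) took 39.9% and inward rectifiers (15 genes, 8 named) 32.5%. The 8 calcium- or sodium-activated genes, all named, took 11.8%, the auxiliary subunits (16 genes, 12 named) 9.54% and the two-pore channels (14 genes, 8 named) 6.24%. Probes capture each gene with its own efficiency, so levels are compared between sections and regions and not between genes.

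Muscle spots were those high in 9 contractile genes. The summed level of these genes in muscle spots was 21642 to 27362 CPM (UMIs scaled to 1000000 per section and spot class) in E14.5 controls and 128417 to 131917 in E18.5 controls, against 5636 to 8681 and 31869 to 47828 in the other spots. A spot covers several cells, so fewer cells of a type and less RNA per cell cannot be told apart. Sections held 703 to 3478 spots under tissue and 14179161 to 82859104 UMIs. The tissue beside the muscle differed between sections: adrenal cortex genes summed to 1906 CPM in the other spots of E14.5 control 1 and to at most 8.49 in the other 7 sections, and cartilage genes in muscle spots to 960 in E18.5 control 1 and at most 62.4 elsewhere. Of the targeted genes, Cacna1s in muscle stood at 84.4 and 87.3 TMM-normalized CPM in the E18.5 controls and at 29.7 in CaV1.1-/- (log2 fold change -1.53 ± 0.15 SE, adjusted p = 0.00133 by edgeR). At E14.5 it stood at 16.5, 15 and 18.4 in controls and 13.4 in CaV1.1-/- (adjusted p = 0.34). Ctnnb1 was 96.2 in the bCat cKO against 105 and 97.4 (adjusted p = 0.77). Where the probes lie relative to the altered parts of these genes is not known here, and the β-catenin deletion is limited to muscle fibers, so these values check the labels only in part.

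The first comparison asked how the channel set of muscle differed between E14.5 and E18.5 in controls. Levels in muscle are TMM-normalized CPM, summed over the muscle spots of a section, and a gene was called at an adjusted p under 0.05 in edgeR's quasi-likelihood test over all genes tested. Of 72 members tested, 38 were called (52.8%), 27 higher and 11 lower at E18.5, where 65.6% of all genes tested were called (33.2% higher and 32.3% lower). The members' median log2 fold change was 0.31 and that of all genes tested -0.01. Inward rectifiers were higher in 6 of 9 genes tested and lower in 0, calcium- or sodium-activated channels in 5 of 8 and 0, and voltage-gated channels higher in 13 and lower in 4 of 35. Auxiliary subunits were higher in 2 and lower in 6 of 12.

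Kcnj12, which encodes the inward rectifier Kir2.2, stood at 22.3, 15.1 and 18.6 in the 3 E14.5 controls and at 157 and 145 in the 2 E18.5 controls. It was 8.16-fold higher at E18.5 (log2 fold change 3.03 ± 0.15 SE, adjusted p = 2.41e-06), with no overlap between the stages. Kcnj11, the pore of the ATP-sensitive channel, rose from 22.7, 16.9 and 18.7 to 109 and 111 (5.67-fold). Kcnj8, the pore of the ATP-sensitive channel known from vascular muscle, was at 6.92, 6.78 and 7.35 and then at 31.0 and 27.3 (4.16-fold). Kcnj2, which encodes Kir2.1, changed less, from 50.2, 43.6 and 34.7 to 69.2 and 79.7 (1.73-fold, adjusted p = 0.00195). For Kcnj12, Kcnj11 and Kcnj8 every E18.5 control lay above every E14.5 control on this scale and in CPM without TMM scaling. The change of Kcnj2 depended on the scaling: in CPM without it the controls had 57.6, 53.2 and 43.1 at E14.5 and 50.3 and 58.3 at E18.5, with the stages overlapping. Of the 27 members called higher, 6 overlapped between the stages without TMM scaling and 2 had the opposite direction of means, whereas 0 of the 11 called lower did either. The same counts over all called genes are not given, so this split cannot be read as particular to the members. Endothelium markers in muscle spots were also higher at E18.5, at 647 and 598 CPM against 311, 467 and 366, and their part in the difference of Kcnj8, which was higher in endothelium-rich spots, was not tested.

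Among voltage-gated channels, Kcna7, a Shaker-type channel known from muscle and heart, had 0.929, 0.973 and 0.691 and then 19.5 and 27.0 (26.1-fold, log2 fold change 4.71 ± 0.21 SE, adjusted p = 1.69e-06). Kcnf1, a subunit that is silent on its own, had 0.633, 0.778 and 0.251 and then 13.4 and 12.7 (21.7-fold). Kcnq1 was 9.64-fold higher and Kcng4 13.4-fold. Kcng4 had only 3, 4 and 1 UMIs in the E14.5 controls, against 64 and 80 in the E18.5 controls. In Kcna7 and Kcnf1 the stages did not overlap.

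The fast-gating Shaw-type pair Kcnc4 and Kcnc1 rose by similar factors. Kcnc4 went from 3.67, 3.67 and 3.02 to 25.7 and 25.2 (7.27-fold, adjusted p = 1.05e-06), and Kcnc1 from 4.64, 3.98 and 3.83 to 24 and 27.3 (6.16-fold, adjusted p = 2.29e-06). Kcna10 had 0 UMIs in the 3 E14.5 controls and 80 in the 2 E18.5 controls, at least 12.1-fold higher when 3 UMIs are taken as the floor over the E14.5 group. Of the calcium-activated channels, Kcnma1, the large-conductance BK pore, went from 18.6, 17.6 and 18.7 to 44.9 and 42.7 (2.40-fold), and Kcnn3, a small-conductance channel of fetal and denervated muscle, from 17.0, 12.2 and 15.1 to 21.4 and 19.8 (1.40-fold, adjusted p = 0.0178). In CPM without TMM scaling Kcnn3 ran the other way, from 19.5, 14.9 and 18.8 to 15.6 and 14.49. The auxiliary subunit Kcne3 was 1.74-fold higher (adjusted p = 0.0195), but without TMM scaling it had 4.06, 6.55 and 4.75 CPM and then 6.44 and 4.43, with the stages overlapping. Kcnq5 did not pass the test (log2 fold change 0.61, adjusted p = 0.064).

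The 11 members lower at E18.5 included the cytoplasmic partners of Kv4 channels Kcnip2 and Kcnip1. Kcnip2 went from 6.42, 5.67 and 4.77 to 1.14 and 1.22 (4.76-fold lower, log2 fold change -2.25 ± 0.22 SE, adjusted p = 5.92e-05). Kcna3, a Shaker-type channel best known from T cells, went from 4.86, 4.36 and 5.40 to 1.18 and 1.22 (4.04-fold lower). The stages did not overlap in either gene. Kcnip1 was 6.0-fold lower, Kcnq3 4.62-fold, Kcnh1 3.78-fold and Kcnip4 3.58-fold; Kcnh1, or EAG1, is known from fusing myoblasts. Schwann cell markers moved the same way, from 204 to 272 CPM in muscle spots of E14.5 controls to 64.0 and 73.8 at E18.5, and their part in these differences was not tested. When library sizes were set to the 9 contractile genes instead, the median of all genes fell by 3.19 on the log2 scale, and 4 members were called higher and 60 lower. Leaving out E14.5 control 2 or E18.5 control 1 ended the call of Kcnq3 (log2 fold change -1.46 and -1.65).

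**Figure D1:**
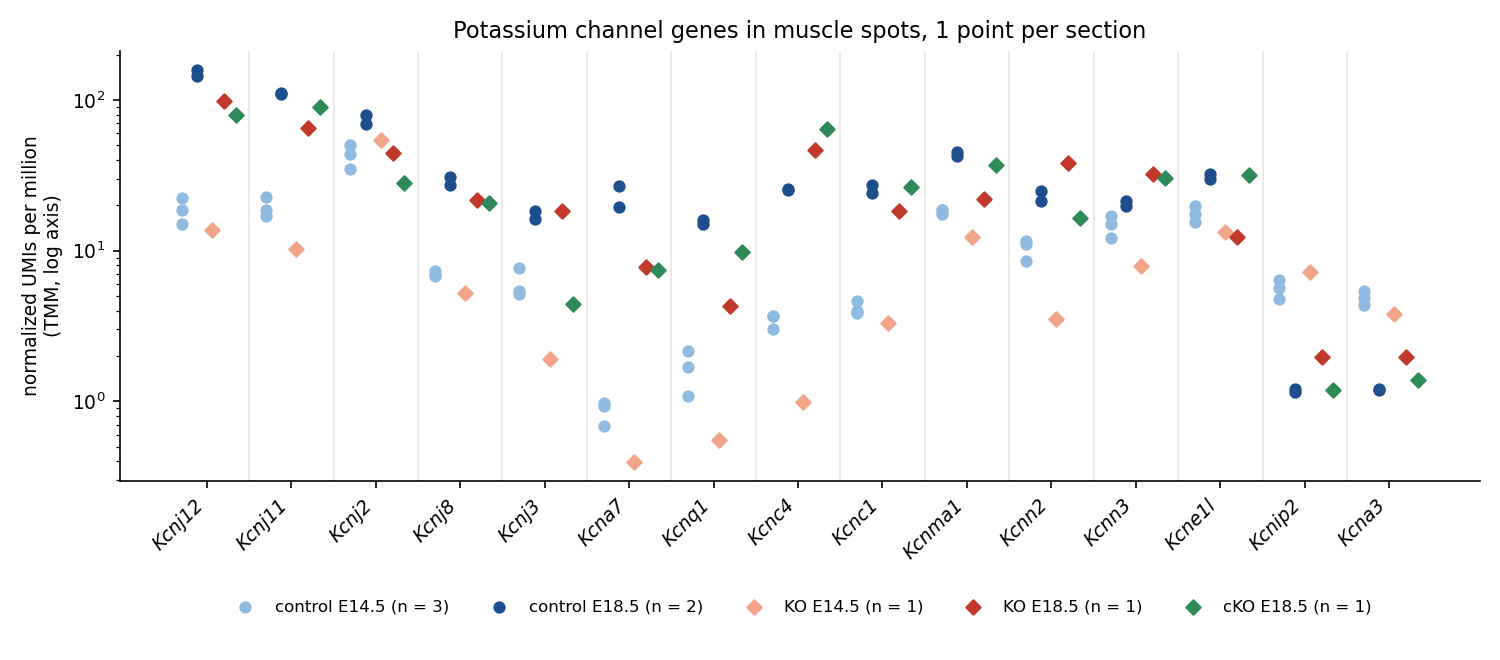
Levels of 15 Kcn genes in muscle spots, as TMM-normalized CPM on a log axis, with 1 point for each of the 8 sections, grouped by genotype and stage. Kcnj12 and Kcnj11 sat at 15.1 to 22.7 in the E14.5 controls and at 109 to 157 in the E18.5 controls, and Kcnc4 in both E18.5 mutants sat above both controls.

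The next comparison asked what the absence of CaV1.1 went with in muscle at E14.5. Of 72 members tested, 5 were called, all lower in CaV1.1-/- and 0 higher, where 2.08% of all genes tested were called (0.533% higher and 1.54% lower). The single mutant section is taken to vary as the controls do. Kcnc4 stood at 0.996 in CaV1.1-/- against 3.67, 3.67 and 3.02 (3.49-fold lower, adjusted p = 0.0102). Kcnj3, a G protein-gated inward rectifier, stood at 1.91 against 7.64, 5.42 and 5.15 (3.18-fold lower, adjusted p = 0.0351). Kcnn2, a small-conductance calcium-activated channel, stood at 3.51 against 11.1, 8.56 and 11.6 (2.94-fold lower, adjusted p = 0.0217). Each of these mutant values lay below every control. Kcnj11 was 10.2 against 16.9 to 22.7 (1.90-fold lower, adjusted p = 0.0463).

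The contractile genes were lower in the same section, at 16235 CPM against 21642 to 27362. Macrophage markers in its muscle spots were higher, at 227 against 122 to 137, and endothelium markers lower, at 233 against 311 to 467. The part of any of these was not tested. With library sizes set to the contractile genes, which moved the median of all genes by 0.56 on the log2 scale, 10 members were called higher and 3 lower. The calls at this stage were fragile: without E14.5 control 3 Kcnc4 alone stayed called, and without E18.5 control 2 Kcnj11 was lost (-0.93).

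At E18.5, 26 of 72 members were called in CaV1.1-/- muscle, 14 higher and 12 lower, where 25.7% of all genes tested were called (10.6% higher and 15.2% lower). The median log2 fold change of the members was 0.20 and of all genes tested 8.05e-05. Of the 14 genes listed as known muscle channels, 2 were higher and 6 lower. By family, voltage-gated channels were higher in 8 and lower in 6 of 35, auxiliary subunits higher in 1 and lower in 3 of 12, and two-pore channels higher in 1 and lower in 0 of 8.

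Among the members lower in the E18.5 mutant, Kcna7 had 7.83 against 19.5 and 27.0 (2.97-fold lower, adjusted p = 0.0058). Kcne1l, the X-linked auxiliary subunit also called Kcne5, had 12.3 against 32.2 and 30.1 (2.53-fold lower, adjusted p = 0.00297). Both genes were below both controls of their stage. Kcnma1 had 22.1 against 44.9 and 42.7, Kcnj11 65.1 against 109 and 111, and Kcnj2 44.5 against 69.2 and 79.7. These 3 decreases were smaller in CPM without TMM scaling. There Kcnma1 had 23.4 against 32.6 and 31.2, Kcnj11 68.9 against 79.3 and 81.1, and Kcnj2 47.1 against 50.3 and 58.3. Kcnq1 was 3.62-fold, Kcne3 2.99-fold and Kcng2 5.95-fold lower, where Kcng2 had only 6 UMIs in the mutant. Kcnmb1, an auxiliary subunit of BK channels, had 1 UMI in the mutant against 59 in the controls, a ratio of 0.144 (95% counting interval 0.00359 to 0.836). Kcna10 had 2 UMIs against 80, a ratio of 0.213 (0.0253 to 0.794).

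Other muscle channels did not pass the test. Kcnj12 had 98.2 against 157 and 145 (log2 fold change -0.62 ± 0.20 SE, adjusted p = 0.0527). Kcnj8 and Kcnc1 had log2 fold changes of -0.43 (adjusted p = 0.0635) and -0.49 (adjusted p = 0.0647).

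Among the members higher in the E18.5 mutant, Kcnc4 stood at 46.8 against 25.7 and 25.2 (1.84-fold, log2 fold change 0.88 ± 0.13 SE, adjusted p = 0.00418). Kcnn3 stood at 32.3 against 21.4 and 19.8 (1.57-fold, adjusted p = 0.0413). Both lay above the 2 controls of their stage. Kcna1, a Shaker-type channel of axons, stood at 12.2 against 1.27 and 1.22 (9.80-fold, adjusted p = 0.00229), above all 7 other sections, which reached at most 1.71. Kcnj10, a glial inward rectifier, stood at 5.45 against 1.24 and 1.24 (4.4-fold), and Kcna2, the partner of Kcna1 in axons, at 3.02 against 0.891 and 0.717 (3.73-fold). Kcnh8 was 8.37-fold, Kcnh3 7.5-fold, Kcna4 5.96-fold, Kcnk5 3.67-fold, Kcns3 3.33-fold and Kcnj15 3.13-fold higher. Muscle spots held 16293312 of this section's 23949267 UMIs. They held 64 of 155 Kcnh3 UMIs, 33 of 89 for Kcna4, 84 of 181 for Kcns3 and 122 of 329 for Kcnj15. Those genes were therefore denser outside its muscle spots. For Kcna1, Kcnh8, Kcnk5, Kcnj10 and Kcna2 the counts were 211 of 338, 57 of 79, 115 of 154, 94 of 117 and 52 of 63. The part of tissue outside muscle was not tested.

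Schwann cell markers, all 6 of them detected, summed to 229 CPM in the muscle spots of this section against 64.0 and 73.8 in the controls. Neuron markers, all 5 detected, summed to 30.1 against 19.99 and 38.7, and macrophage markers to 379 against 108 and 143. The contractile genes summed to 71384 against 128417 and 131917. The part of any of these in the members' differences was not tested. In marker-rich spots of the controls, described below, edgeR called 0 of 63 members in Schwann-rich spots over the 5 controls. It called 19 over the 2 E18.5 controls alone. The share of all genes called in that second fit is not given, so its count is no result about the members. With library sizes set to the contractile genes, which moved the median of all genes by 1.40 on the log2 scale, 46 members were called, 46 higher and 0 lower. Without E18.5 control 1 the calls of Kcna4, Kcnip1, Kcns3, Kcnmb1 and Kcna5 were lost (log2 fold changes 1.93, 1.87, 1.56, -2.82 and -0.75), and without E18.5 control 2 that of Kcna2 (1.76). Without E14.5 control 1 those of Kcnip1 (2.42) and Kcnmb1 (-3.23) were lost, without control 2 those of Kcna4 (2.58) and Kcnmb1 (-3.22), and without control 3 those of Kcna4 (2.57), Kcnip1 (2.41), Kcns3 (1.73) and Kcnmb1 (-3.23).

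The difference between the 2 CaV1.1-/- effects was tested in the same fit, and 6 of 72 members were called, 5 higher and 1 lower, where 6.4% of all genes tested were called (2.22% higher and 4.18% lower). Kcnc4 was lower than controls at E14.5 and higher at E18.5, and its effect differed by 2.69 ± 0.24 SE on the log2 scale (adjusted p = 0.0143). Kcnn2 turned in the same way, from 3.51 against 8.56 to 11.6 at E14.5 to 38.0 against 21.5 and 25.1 at E18.5, a difference of 2.27. In the E18.5 CaV1.1-/- section muscle spots held 656 of 1267 Kcnn2 UMIs and 16293312 of all 23949267, so Kcnn2 was denser outside muscle. In the E18.5 controls they held 1182 of 1348 and 1154 of 1385 Kcnn2 UMIs. The part of tissue outside muscle was not tested. Kcnj3 stood at 18.4 against 18.3 and 16.2 at E18.5, and its effects differed by 1.76. Kcnj15 and Kcnn3 differed by 2.45 and 1.53. All 6 calls were lost without E14.5 control 3, and 3 of them, Kcnj15 (2.58) and Kcnj3 (1.85) included, without control 2. Kcnj3 (1.68) was also lost without E18.5 control 2. On the scale of the contractile genes, where the median of all genes moved by 0.86, 21 members were called higher and 0 lower. With DESeq2 6 were called higher and 3 lower.

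The bCat cKO at E18.5 asked what the loss of muscle β-catenin went with. Of 72 members tested, 6 were called, 1 higher and 5 lower, where 8.8% of all genes tested were called (3.18% higher and 5.62% lower). Kcnc4 was the member higher, at 63.8 against 25.7 and 25.2 (2.51-fold, log2 fold change 1.33 ± 0.13 SE, adjusted p = 0.00235). Of the 9 inward rectifiers tested, 3 were lower. Kcnj3 had 4.45 against 18.3 and 16.2 (3.88-fold lower, adjusted p = 0.00763), Kcnj2 28.0 against 69.2 and 79.7 (2.66-fold lower, adjusted p = 0.0104) and Kcnj12 79.4 against 157 and 145 (1.91-fold lower, adjusted p = 0.0303). Kcna7 had 7.46 against 19.5 and 27.0 (3.12-fold lower, adjusted p = 0.011) and Kcna5 8.39 against 14 and 13.8 (1.66-fold lower, adjusted p = 0.0493). Each cKO value lay outside both controls. Kcne1l had 31.6 against 32.2 and 30.1 (0.02 ± 0.16 SE, adjusted p = 0.96).

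Contractile genes summed to 105199 CPM in the cKO muscle and Schwann markers to 88.1. Macrophage markers stood at 239 against 108 and 143 in the controls, smooth muscle and mural markers at 669 against 445 and 438, and endothelium markers at 449 against 647 and 598. The part of any of these was not tested. On the scale of the contractile genes, where the median of all genes moved by 0.52, 4 members were called higher and 2 lower. The call of Kcnj12 was lost without E14.5 control 3 (log2 fold change -0.93), E18.5 control 1 (-0.87) or E18.5 control 2 (-0.99), and that of Kcna5 without E14.5 control 2 or 3 (-0.73 and -0.73) or E18.5 control 1 or 2 (-0.71 and -0.74).

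Both E18.5 mutants were set against the same 2 controls, so their shared directions are not independent. Set directly against each other, 12 of 72 members were called, 4 higher and 8 lower in the cKO, where 7.3% of all genes tested were called (4.43% higher and 2.87% lower). Kcne1l was 2.57-fold higher in the cKO (31.6 against 12.3, adjusted p = 0.00857), Kcnma1 1.69-fold (37.3 against 22.1) and Kcng2 8.15-fold (2.86 against 0.348). Kcna1 was 15.1-fold lower in the cKO (0.807 against 12.2, adjusted p = 0.00675) and Kcna2 17.2-fold (0.171 against 3.02). Kcnj3 was 4.14-fold lower (4.45 against 18.4, adjusted p = 0.00875). Kcnj10, Kcnh8, Kcnk5, Kcnn2 and Kcna6 were lower by 7.92-, 7.89-, 4.77-, 2.3- and 2.12-fold. Low counts underlie 2 of the large differences: Kcng2 had 6 UMIs in CaV1.1-/- muscle and Kcna2 had 7 in cKO muscle. The calls of Kcnj10 (-2.99), Kcnn2 (-1.20) and Kcna6 (-1.08) were lost without E14.5 control 3, and that of Kcnh8 (-2.98) without control 2 or 3. On the scale of the contractile genes, where the median of all genes moved by -0.89, 2 members were called higher and 32 lower.

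**Figure D2:**
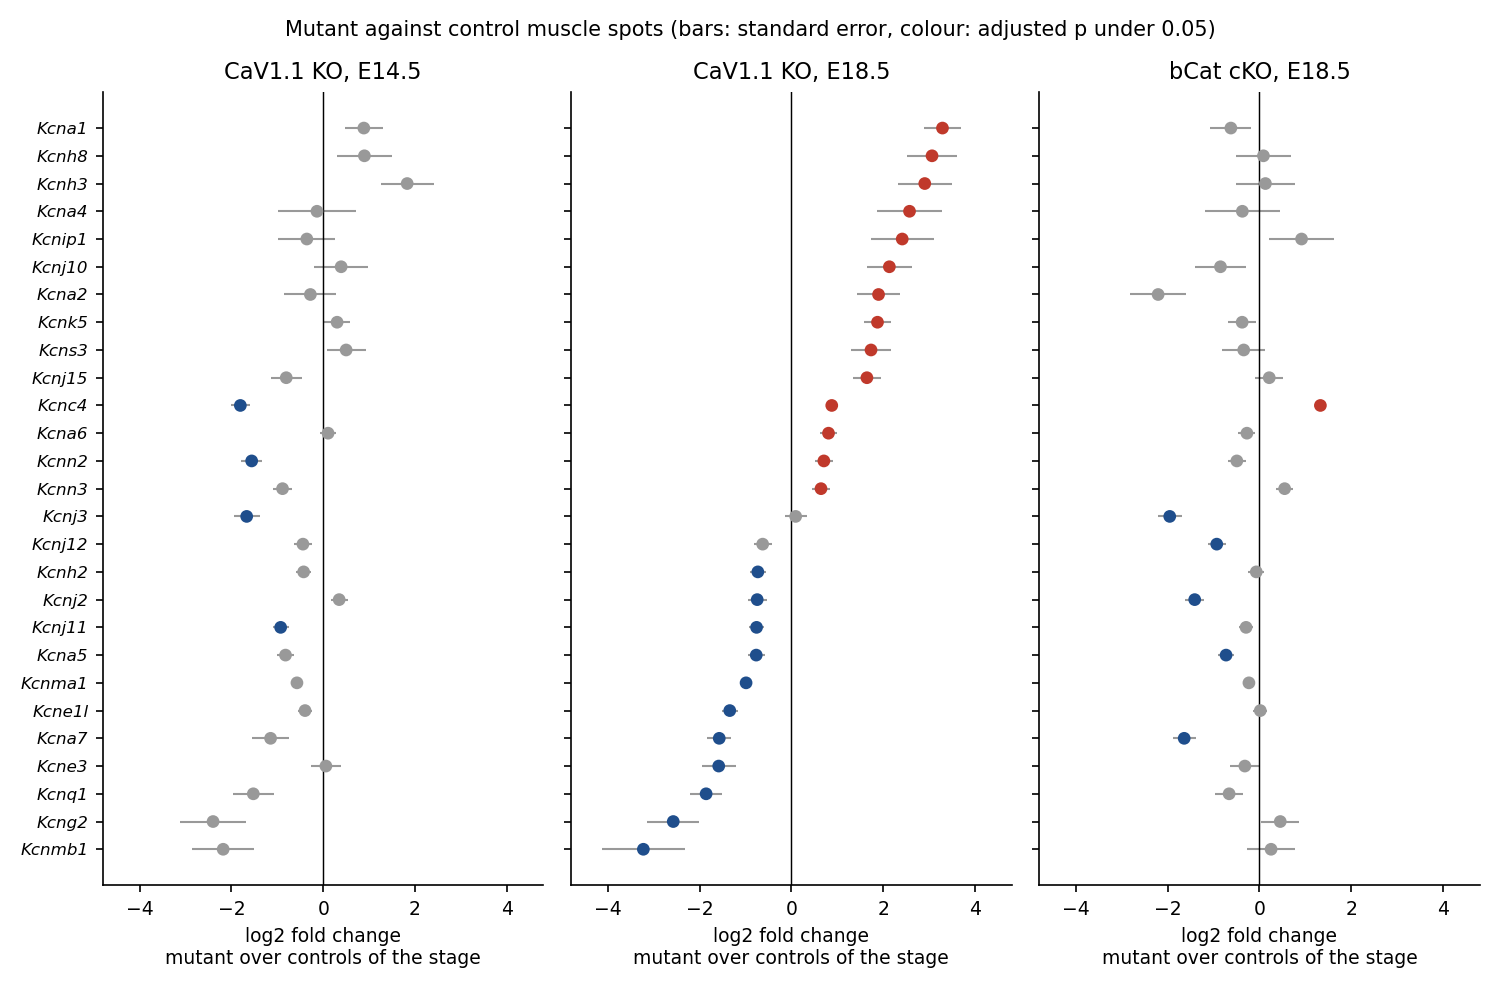
Log2 fold changes of 27 Kcn genes in muscle spots, with bars of 1 standard error, for CaV1.1-/- against control at E14.5, CaV1.1-/- against control at E18.5 and bCat cKO against control at E18.5. Coloured points passed an adjusted p under 0.05. Kcnc4 lies at -1.81, 0.88 and 1.33, and Kcna1 stands out at 3.29 in the E18.5 CaV1.1-/- section.

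Partners of these channels and other genes of potassium transport were taken as a list of 28, of which 27 could be tested. At E18.5 against E14.5 in controls 15 were higher and 5 lower, where 33.2% and 32.3% of all genes tested were. Atp1b4, a muscle-enriched member of the β family of sodium-potassium pump subunits, went from 175, 123 and 138 to 1630 and 1480. Abcc9, the sulfonylurea receptor that pairs with Kcnj8 and Kcnj11, went from 84.9, 64.3 and 69.0 to 215 and 212. In CaV1.1-/- at E14.5, 0 were higher and 2 lower (0.533% and 1.54% of all genes), Atp1b4 (log2 fold change -2.40, adjusted p = 0.00822) and Fxyd1 (-1.17). In CaV1.1-/- at E18.5, 3 were higher and 7 lower (10.6% and 15.2% of all genes), among them Abcc9 (log2 fold change -0.75). Dpp6, a Kv4 partner, was higher (1.25). In the bCat cKO 1 was higher and 2 lower (3.18% and 5.62% of all genes), Atp1b1 (-1.28) included.

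Within controls, muscle spots were compared with the other spots of the same section. At E14.5, 31 of 71 members tested were called, 13 higher and 18 lower in muscle, where 40.8% of all genes tested were called (23% higher and 17.8% lower). At E18.5, 41 were called, 19 higher and 22 lower, where 57.7% were (31.1% higher and 26.6% lower). Levels by region are CPM of the region without TMM scaling. Kcnj12 had 25.5, 18.4 and 23.1 in muscle and 13.1, 3.89 and 3.0 in other spots at E14.5, and 114 and 106 against 44.5 and 24.3 at E18.5 (log2 fold changes 1.80 and 2.40). Kcnj11 had 26, 20.7 and 23.1 against 8.14, 5.89 and 4.49, and then 79.3 and 81.1 against 34.3 and 21.9 (2.0 and 2.21). In both genes muscle lay above the other spots in 5 of 5 sections. Kcnh2, which encodes the ERG channel, was higher in muscle at both stages (1.5 and 1.81), with 93.4, 74.6 and 84.9 in E14.5 muscle and 46.0 and 41.4 in E18.5 muscle. Between the stages, on the TMM scale, Kcnh2 was not among the members called in muscle. At E18.5 Kcna7 (2.44), Kcnf1 (2.24), Kcng4 (2.20), Kcnq1 (2.20), Kcnj3 (2.07) and Kcne1l (1.81) were also among the 10 with the largest excess in muscle.

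Among the members lower in muscle, the difference of Kcnk3 at E14.5 rested on 1 section. Kcnk3, a two-pore channel known from adrenal cortex, had 164 CPM in the other spots of E14.5 control 1, the section with adrenal genes, and 2.94 and 5.24 in those of the other 2. Its difference at E14.5 was -3.39 on the log2 scale, and without that section -1.08 and not called. Kcnk1, a two-pore channel, had 7.10 and 8.58 in muscle and 31.1 and 46.6 outside it at E18.5 (-1.61, adjusted p = 8.71e-05), lower in 2 of 2 sections. Without E14.5 control 1 or 2, 16 and 17 members were called at E14.5, and without E18.5 control 2, 25 at E18.5.

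The excess in muscle changed between the stages in 9 of 71 members, 4 higher and 5 lower at E18.5, where 21% of all genes tested were called (13.6% higher and 7.43% lower). For Kcnf1 it was higher at E18.5 by 2.47 ± 0.38 SE on the log2 scale (adjusted p = 0.0069). Kcnip2 went from 7.36, 6.92 and 5.92 in E14.5 muscle against 2.91, 2.10 and 1.5 to 0.831 and 0.890 against 3.69 and 1.3 (a difference of -2.56 on the log2 scale, adjusted p = 0.0219). Without E14.5 control 1 or 2, 5 and 5 members were called, and without E18.5 control 2, 4.

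**Figure D3:**
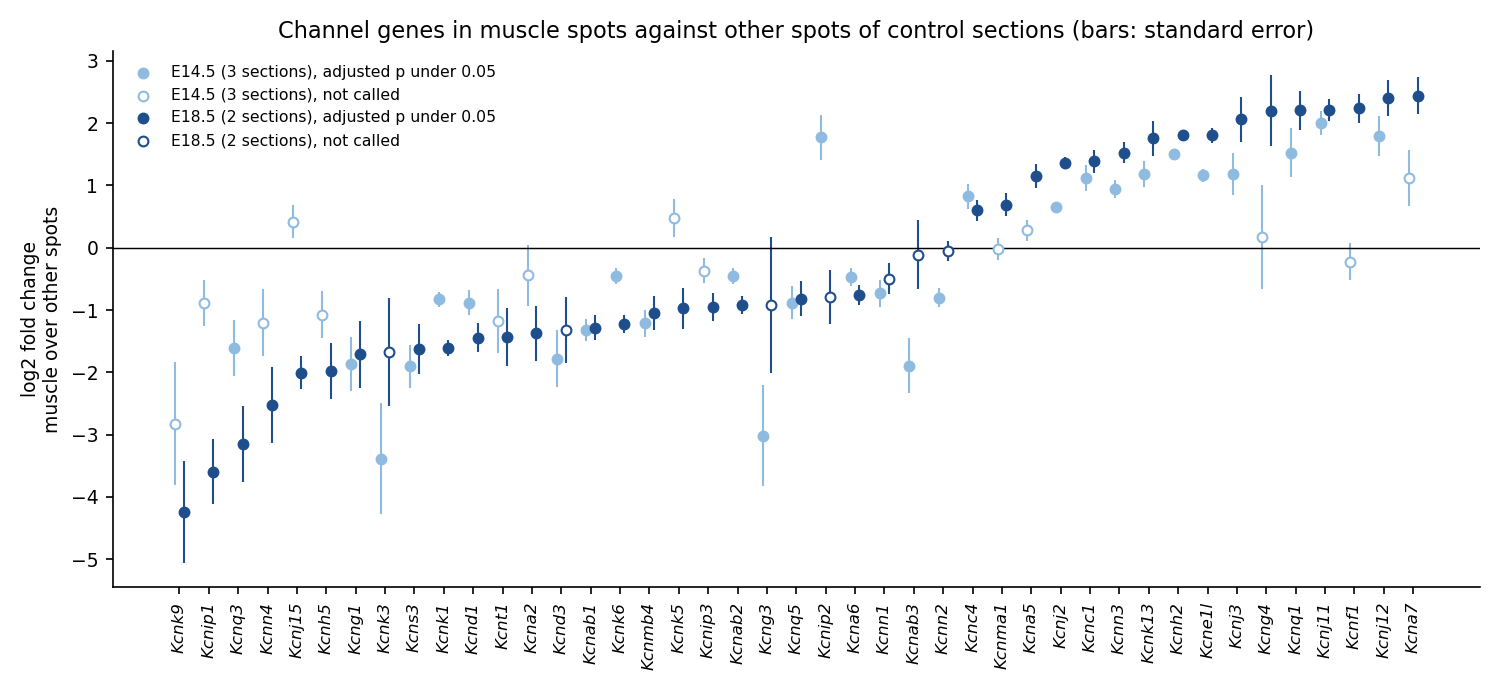
Log2 fold changes between muscle spots and the other spots of control sections, with bars of 1 standard error, for 43 Kcn genes called at either stage, named along the horizontal axis. Each gene has a point for E14.5 and one for E18.5, filled where it passed an adjusted p under 0.05. Kcnj12 (1.80 and 2.40) and Kcnj11 (2.0 and 2.21) lie high at both stages, and Kcnk1 (-0.83 and -1.61) lies below 0 at both.

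The position along the fibers was read by markers that hold no Kcn gene. Center spots were the 15% of muscle spots highest in 8 endplate genes, such as the acetylcholine receptor subunits, periphery spots the 15% highest in 4 genes of the myotendinous junction, and intermediate spots the rest. At E14.5, 15 of 40 members tested differed between center and periphery, 8 higher and 7 lower in the center, where 22% of all genes tested were called (11% each way). Kcnj12 had 51.2, 41.4 and 33.3 CPM in the center against 14.9, 6.58 and 19.4 at the periphery of the 3 sections (3.66-fold, log2 fold change 1.87 ± 0.19 SE, adjusted p = 4.02e-08), with no overlap. Kcnj3, Kcnk13, Kcnj2, Kcnn3, Kcnj11, Kcne1l and Kcnh2 were higher in the center by 0.31 to 0.96 on the log2 scale. At the periphery, Kcnc4 had 13.7, 11.2 and 5.77 against 2.03, 3.06 and 2.45 in the center (4.04-fold higher at the periphery, adjusted p = 2.22e-05). Kcnk2, a mechanically gated two-pore channel, had 9.28, 5.6 and 3.15 against 0.760, 1.43 and 0.980 (5.40-fold higher at the periphery). Both genes were higher at the periphery in 3 of 3 sections. Kcns3, Kcnn1, Kcnab1, Kcna3 and Kcnk1 were higher there by 0.89 to 1.52. Schwann markers summed to 351, 288 and 300 CPM in the center against 197, 159 and 199.8 at the periphery, and tendon markers to 259, 273 and 269 against 577, 745 and 770.2. The part of either was not tested. Without E14.5 control 1 or 2, 8 and 9 members were called, and the calls lost included Kcne1l (0.34 without control 1, 0.39 without control 3), Kcnj3 (0.79 and 0.93 without controls 1 and 2) and Kcnj11 (0.54 and 0.32 without controls 1 and 3).

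At E18.5, 14 of 50 members tested differed between center and intermediate spots, 9 higher and 5 lower in the center, where 11.5% of all genes tested were called (5.5% higher and 6.01% lower). Kcne1l had 69.5 and 64.2 CPM in the center, 15.8 and 14.8 in intermediate spots and 11.9 and 11.0 at the periphery of the 2 controls (center against intermediate 4.09-fold, log2 fold change 2.03 ± 0.06 SE, adjusted p = 9.85e-11). The order center, intermediate, periphery held in 2 of 2 sections. Kcnj12 had 157 and 156 in the center against 109 and 100 in intermediate spots (1.40-fold). The axonal and glial genes Kcna2 (2.79), Kcnj10 (1.99) and Kcna1 (1.84) were also higher in the center, where Schwann markers summed to 106 and 126 against 55.7 and 65.0 in intermediate spots, and the part of those cells was not tested. Kcnq5 (0.88), Kcna6 (0.71) and Kcnf1 (0.67) were higher as well, and Kcnc4 (-0.90), Kcnc1 (-0.36), Kcnn3 (-0.31), Kcnj11 (-0.27) and Kcnh2 (-0.20) lower.

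The window around the RefSeq start of Kcne1l, the gene with the smallest adjusted p among members in the center, is printed here as background on its promoter. The gene lies on chromosome X from 142304752 to 142306294 on the minus strand (GRCm38, GENCODE annotation). The window spans chrX:142306149-142306448 (GRCm38.p6, minus strand), 250 bases before to 50 after the start of the transcript listed by RefSeq, written 5′ to 3′. Capitals mark the E-box motif CANNTG, searched on both strands, which the window held 1 time, 117 bases before the start.
Kcne1l promoter: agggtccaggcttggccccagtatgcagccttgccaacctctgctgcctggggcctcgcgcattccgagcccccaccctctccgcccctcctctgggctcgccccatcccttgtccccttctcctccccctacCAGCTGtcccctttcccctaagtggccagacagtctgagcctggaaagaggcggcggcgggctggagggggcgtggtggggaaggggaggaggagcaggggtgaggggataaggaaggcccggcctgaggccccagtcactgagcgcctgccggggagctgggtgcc
The motif was found in 72.3% of all 32841 RefSeq promoter windows of this length and in 74.3% of the 70 windows of the 50 named Kcn genes that could be matched. A match is a description of the letters and no measure of binding.

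At the periphery of E18.5 muscle, 22 of 50 members were called against intermediate spots, 12 higher and 10 lower, where 34% of all genes tested were called (17.1% higher and 16.9% lower). Kcnc4 had 47.8 and 58.1 at the periphery against 14.2 and 13.1 in intermediate spots and 9.18 and 6.25 in the center (periphery against intermediate 3.47-fold, log2 fold change 1.79 ± 0.10 SE, adjusted p = 3.92e-08). Kcnc1 had 34.9 and 40.3 against 14.6 and 17.2 (2.13-fold, adjusted p = 8.49e-08). For both Shaw-type genes the periphery was the highest region in 2 of 2 sections. Kcnk2 had 1.95 and 3.01 against 0.419 and 0.454 (4.97-fold). Kcnip4 was 6.02-fold and Kcnh5 3.76-fold higher, both from low levels. Kcna7 (-0.67), Kcne1l (-0.56), Kcnq1 (-0.55) and the inward rectifiers Kcnj8 (-0.41), Kcnj12 (-0.39), Kcnj11 (-0.33) and Kcnj2 (-0.25) were lower. Tendon markers summed to 993 and 1442 CPM at the periphery against 260 and 352 in intermediate spots, and their part was not tested.

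**Figure D4:**
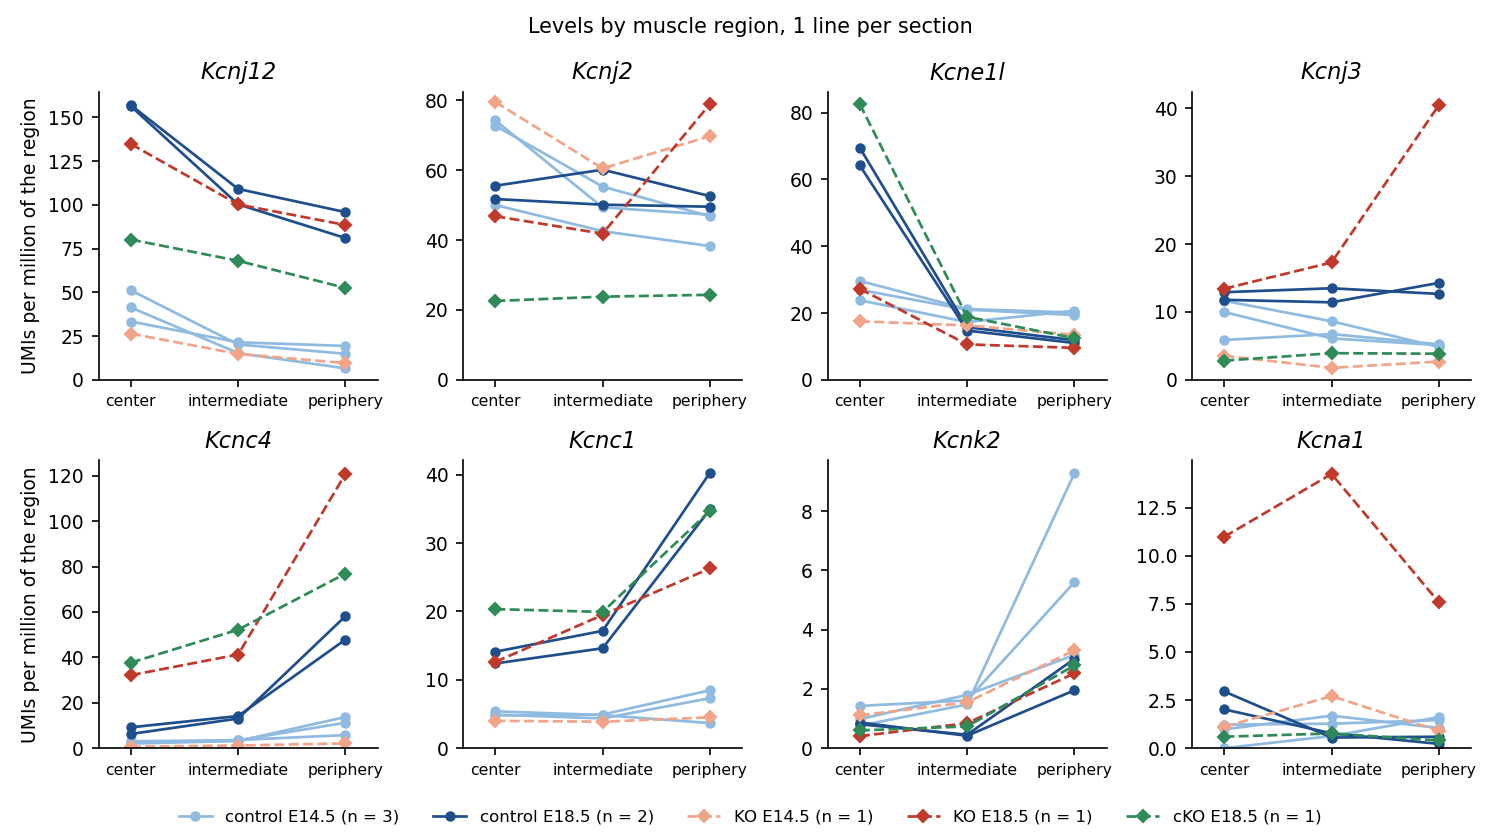
CPM of the region for 8 Kcn genes in center, intermediate and periphery spots of muscle, with 1 line for each of the 8 sections. At E18.5 Kcne1l falls from the center outward and Kcnc4 and Kcnc1 rise toward the periphery in both controls.

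The difference between center and periphery changed from E14.5 to E18.5 in 10 of 56 members tested, 4 higher and 6 lower, where 8.35% of all genes tested were called (4.14% higher and 4.22% lower). Kcne1l had 29.6, 23.8 and 27.0 in the center of the E14.5 controls against 20.2, 20.7 and 19.4 at the periphery. Its center excess grew by 2.18 ± 0.17 SE on the log2 scale (adjusted p = 1.07e-09), and no alternative that was run ended that call. Kcna1 grew by 3.41. The inward rectifiers Kcnj12 (-1.0), Kcnj3 (-1.01) and Kcnj2 (-0.50) lost center excess, as did Kcnn3 (-0.82), Kcnc1 (-1.01) and Kcnj15 (-2.95). Without E14.5 control 2, 3 members were called, and without E18.5 control 2, 5. The call of Kcnj12 was lost without E14.5 control 2 (-0.56).

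The regions of the mutants are values of 1 section each and were not tested. Center spots are defined within a section, and the endplate genes that define them were less confined in CaV1.1-/- at E18.5. They summed to 4183 CPM in its center and 1682 in its intermediate spots, against 2993 and 2880 in the centers and 688 and 712 in the intermediate spots of the controls. Its center spots therefore need not mark the same position along the fibers as those of the controls. In CaV1.1-/- at E18.5, Kcne1l had 27.3 in the center, 10.6 in intermediate spots and 9.61 at the periphery. Its ratio of center to intermediate was 2.57 (95% counting interval 1.88 to 3.48), below the 4.4 (3.99 to 4.85) and 4.34 (3.89 to 4.85) of the controls. In the bCat cKO the ratio was 4.37 (3.89 to 4.90), within the range of the controls. These intervals cover counting error only.

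Kcnc4, higher in both E18.5 mutants, was spread differently in them. In CaV1.1-/- it had 32.1 in the center, 41.2 in intermediate spots and 121 at the periphery, a ratio of periphery to intermediate of 2.93 (2.50 to 3.43) against 3.38 (3.02 to 3.77) and 4.45 (3.95 to 5.02) in controls. In the cKO it had 37.7, 52.2 and 76.9, a ratio of 1.47 (1.34 to 1.62). Kcnj2 had 46.8, 41.8 and 78.9 in CaV1.1-/-, a periphery ratio of 1.89 (1.56 to 2.26) against 0.988 and 0.874 in controls. Kcnj3 had 13.4, 17.3 and 40.4, a ratio of 2.34 (1.78 to 3.04) against 0.938 and 1.25. For both inward rectifiers the periphery of the CaV1.1-/- section stood above its center and intermediate spots, which was not so for Kcnj2 in either control. Kcna1 had 11.0, 14.3 and 7.58 in CaV1.1-/-, so that all 3 regions stood above the control centers, at 2.95 and 2.02.

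**Figure D5:**
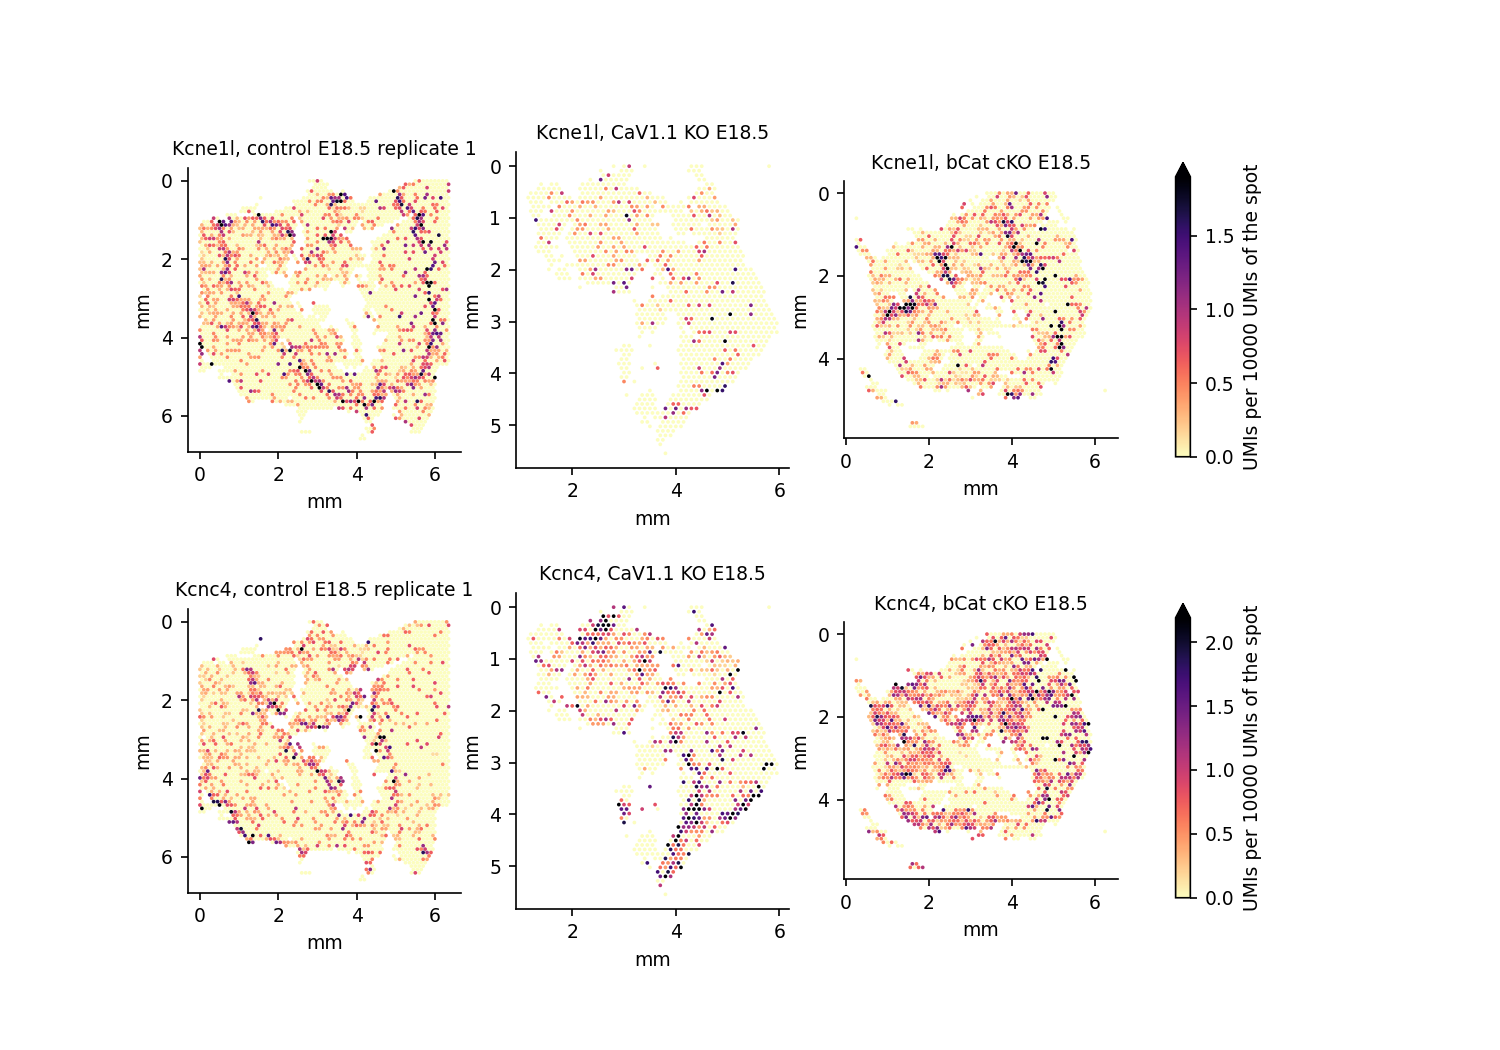
Maps of the sections of E18.5 control 1, CaV1.1-/- and bCat cKO, with each spot coloured by Kcne1l or Kcnc4 UMIs per 10000 UMIs of the spot. Kcne1l forms a band in the control and cKO muscle (69.5 and 82.5 CPM in center spots) that is weaker in CaV1.1-/- (27.3), and Kcnc4 lies along muscle edges in the control and is broad in the cKO.

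Fiber type was read within E18.5 control muscle from 6 slow and 5 fast myofiber genes, by the spots highest and lowest in slow minus fast score. Of 51 members tested, 15 were called, 7 higher and 8 lower in slow-rich spots, where 21.1% of all genes tested were called (9.82% higher and 11.3% lower). Kcng2 had 2.18 and 2.86 CPM in slow-rich and 0.649 and 0.670 in fast-rich spots of the 2 controls (3.40-fold, adjusted p = 0.000125). Its UMIs there were 43 and 46 against 11 and 10. This fit had 1 residual degree of freedom before moderation, so its p-values rest on 2 sections. Kcnc1 had 23.1 and 25.7 against 12.3 and 14.55 (1.65-fold), and Kcnc4 21.6 and 23.1 against 13.7 and 14.1 (1.45-fold). Slow-rich spots were above fast-rich spots in 2 of 2 sections for these genes. Kcna7 had 11.0 and 16.8 against 16.4 and 23.3 (1.58-fold lower), Kcnq1 9.17 and 8.83 against 11.7 and 15.3 (1.64-fold lower), and Kcnj12 102 and 95 against 125 and 119 (1.37-fold lower). Of the 7 inward rectifiers tested 5 were lower and 0 higher in slow-rich spots. Tendon markers summed to 506 and 633 CPM in slow-rich spots and to 235 and 255 in fast-rich spots, and their part was not tested. In the cKO Kcnj12 had 36.4 in slow-rich against 84.6 in fast-rich spots, where contractile genes summed to 82707 against 127608 CPM and tendon markers to 849 against 224. In CaV1.1-/- it had 86.1 against 130, with contractile genes at 51837 against 93250 and tendon markers at 569 against 303. In the controls contractile genes stood at 119145 and 120545 in slow-rich and at 139535 and 143567 in fast-rich spots, and their part was not tested. DESeq2 called 4 members, 1 higher and 3 lower, and without the section as a block 0 were called.

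Spots rich in markers of another tissue, the highest 10% of a section's spots, were set against the rest in the 5 controls. In tendon-rich spots 28 of 62 members tested were called, 12 higher and 16 lower, where 36.4% of all genes tested were called (21.9% lower and the rest higher). Contractile genes summed to 8682 to 74774 CPM there and to 18511 to 128456 in the rest. Kcnk1 was 3.38-fold higher (adjusted p = 0.000212), Kcnn2 2.42-fold and Kcna3 2.38-fold, and Kcnj12 2.72-fold lower. In mesothelium-rich spots 19 of 63 were called, 9 higher and 10 lower, where 31% were (11.6% higher and 19.4% lower). Kcnd3, a Kv4 channel, was 4.45-fold higher there, at 19.0, 49.3, 4.77, 28.3 and 44.7 TMM-normalized CPM against 10.4, 8.97, 5.38, 3.28 and 6.75 in the rest of the 5 sections. It was higher in 4 of 5 sections, the exception being E14.5 control 3. Kcna4 (2.0 on the log2 scale) and Kcnab1 (1.59) were also higher.

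In cartilage-rich spots 11 of 63 were called, 6 higher and 5 lower, where 11.2% were (4.88% higher and 6.31% lower), with Kcnk1 higher (2.32-fold). Without any 1 of the 3 E14.5 controls 0 were called, and without E18.5 control 2, 1. In macrophage-rich spots 25 of 65 were called, 10 higher and 15 lower, where 39.5% were (15.8% higher and 23.7% lower), with Kcnd3 higher (1.98-fold) and Kcnj11 lower (2.38-fold). Without E18.5 control 1 or 2, 12 and 16 were called. In endothelium-rich spots 2 of 62 were called, where 2.39% were (1.62% higher and 0.767% lower). Kcnj8 was higher (1.94-fold, adjusted p = 0.045) at 31.6, 15.3, 9.68, 46.7 and 45.2 against 8.78, 7.06, 7.62, 30.6 and 28.0, in 5 of 5 sections, and Kcnh2 was lower (-0.47). Both calls were lost without E14.5 control 2 or 3 or either E18.5 control (Kcnj8 0.92, 1.03, 1.07 and 1.05, Kcnh2 -0.53, -0.51, -0.50 and -0.43). edgeR called 0 of 64 members in smooth muscle-rich spots, where 0.0651% of all genes tested were called (0.0578% higher and 0.00723% lower). There 21 of the 64 members had an unadjusted p under 0.05, as had 3815 of all 13831 genes tested. Without E14.5 control 3, 4 members were called. In Schwann-rich spots edgeR called 0 of 63, where 0.363% were (0.225% higher and 0.138% lower). An unadjusted p under 0.05 was found for 12 of the 63 and for 1156 of all 13780 genes tested. Over the E18.5 controls alone 21 and 19 members were called in smooth muscle-rich and Schwann-rich spots, and the shares of all genes called there are not given. With RLE size factors over the 5 controls both counts were also 0.

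Several of these genes lie near each other in the genome. Kcna3, Kcna2, Kcna10 and Kcnc4 lie in this order on chromosome 3, with gaps of 63.1, 68.1 and 243 kb. Other genes within these gaps were not looked up. Between the stages Kcna3 fell 4.04-fold and Kcnc4 rose 7.27-fold, whereas Kcna2 was not called (adjusted p = 0.14). Kcnj11 and Kcnc1, which rose 5.67-fold and 6.16-fold, lie 296 kb apart on chromosome 7. Kcnmb1 overlaps Kcnip1 on chromosome 11, and which probes count for which gene was not checked here. The deposited Moran's I, a score of how far neighbouring spots resemble each other, was highest among members by its median over the 8 sections for Kcnj12 (0.158), Kcnd3 (0.134), Kcnn2 (0.113), Kcnj11 (0.109) and Kcnc4 (0.101). Its single highest value was that of Kcnk3 in E14.5 control 1, at 0.568, the section with adrenal genes.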

How the data were processed

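Horizontal diaphragm sections of 5 µm were profiled on Visium slides with spots 100 µm apart. The authors deposited raw UMI counts per gene and spot for each section (Space Ranger 2.0.0 in the headers of 3 sections and 2.0.1 in 5, mm10, mouse probe set) and, per gene and section, a spatial autocorrelation score, Moran's I, which the authors deposited beside the counts. The submitters' notes also name Seurat. The deposited p-values of that score were not used.

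Members and marker lists were chosen with earlier results of these data known. Spots with at least 1000 UMIs were kept. Muscle spots were set by Otsu's threshold on the mean log level of 9 contractile genes, scaled to 10000 UMIs per spot. Scores for regions, fiber types and marker-rich spots were built from mean z-scores. Counts were summed per section and spot class and tested with edgeR 4.0.16 in R 4.3.3 (filterByExpr, TMM, quasi-likelihood test, Benjamini-Hochberg over all genes tested). Sections were the replicates. Muscle sums of 8 sections in 5 groups left 3 residual degrees of freedom, and each mutant section was assumed to vary like the controls. Where nothing states separate litters, p-values measure the spread between these sections. Named per comparison were called members with at least 100 UMIs, the 10 with the largest change each way, and 14 known muscle channels; Kcna5, Kcna6, Kcnn2, Kcnj3 and a few others outside that rule were added after their values were seen. Some genes are not reported here.

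Regions of a section came from 1 embryo, so the section was a block there. Deviations of center and periphery of the same section correlated at 0.498, 0.491 and 0.156. Replicates of a group differed by more than sampling noise (chi-square per gene 13.0 to 64.7). Intervals are exact 95% counting intervals. In a run of 14496 genes for CaV1.1-/- at E18.5, simulated 2-fold changes were recovered in 63.6% of changed genes and 1.5-fold changes in 15.2%. Alternatives were DESeq2 1.42.0, RLE size factors, other filters, spot classes, scalings, blocks and left-out controls.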

Additional observations from a re-analysis of the deposited data

Results flagged for a closer look

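Effects that differed between groups by a test of the difference itself are given here on the log2 scale. The CaV1.1-/- effect in muscle was higher at E18.5 than at E14.5 for Kcnc4 (2.69), Kcnj15 (2.45), Kcnn2 (2.27), Kcnj3 (1.76) and Kcnn3 (1.53). The excess of muscle over other spots was higher at E18.5 than at E14.5 for Kcnf1 (2.47), Kcnj2 (0.71) and Kcne1l (0.65), and lower for Kcnip1 (-2.71), Kcnip2 (-2.56), Kcnj15 (-2.42), Kcnk1 (-0.78) and Kcnk6 (-0.77). The excess of center over periphery was higher at E18.5 for Kcna1 (3.41, from few UMIs at E14.5), Kcne1l (2.18) and Kcna6 (0.78). It was lower for Kcnj15 (-2.95), Kcnc1 (-1.01), Kcnj3 (-1.01), Kcnj12 (-1.0), Kcnn3 (-0.82) and Kcnj2 (-0.50). The first group rests on 1 mutant section per stage. Schwann markers in muscle, higher in the E18.5 CaV1.1-/- section, and the tissue beside the muscle, which differed between sections, are given with the results they touch, and their part was not tested.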

How the results depend on the processing

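Counts of members called are given against the reported count. For the alternatives, here and above, the shares of all genes called are not given. These counts therefore show how calls depend on the processing and are no result about the members. Scaled to the contractile genes, the stage change had 64 in place of 38, CaV1.1-/- at E14.5 13 in place of 5, CaV1.1-/- at E18.5 46 in place of 26, the difference of the CaV1.1-/- effects 21 in place of 6 and the cKO against CaV1.1-/- 34 in place of 12. On that scale the median of all genes moved by -3.19, 0.56, 1.40, 0.86 and -0.89, and relative to it 0 named members changed sign. With the replicate number as a block, CaV1.1-/- at E14.5 had 0, the cKO 2, the difference of the CaV1.1-/- effects 0 and the cKO against CaV1.1-/- 4. The numbers did not pair the controls across stages (correlations -0.329 and -0.321). The cKO against CaV1.1-/- had 19 with no filter, 6 over all kept spots and 22 in the spots highest in muscle genes. With no replicate block, the muscle difference between stages had 4 in place of 9, center against periphery at E14.5 9 in place of 15, center at E18.5 2 in place of 14, periphery at E18.5 6 in place of 22, slow against fast 0 in place of 15, endothelium 0 and cartilage 2. DESeq2 gave 7 for center against periphery at E14.5, 7 for center and 11 for periphery at E18.5, and 4 for slow against fast.

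Among marker-rich spots, with 20% of spots endothelium had 1 and Schwann 5. E14.5 controls alone gave endothelium 0, Schwann 6, tendon 15 and macrophage 11, and E18.5 controls alone endothelium 26, smooth muscle 21, Schwann 19 and cartilage 0. Leaving out 1 control gave 33 to 36 for stage, 1 to 6 for CaV1.1-/- at E14.5, 18 to 25 at E18.5, 4 to 7 for the cKO, 0 to 9 for the CaV1.1-/- difference and 8 to 16 for the cKO against CaV1.1-/-. It gave 16 to 34 and 25 to 43 for muscle at E14.5 and E18.5, 4 to 8 for their difference, 8 to 13 for center at E14.5 and 3 to 9 for the center difference. For endothelium, smooth muscle, Schwann, tendon, cartilage, mesothelium and macrophage it gave 0 to 8, 0 to 4, 0 to 0, 22 to 30, 0 to 15, 14 to 20 and 12 to 27.

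Apart from the contractile gene scale, 1 value reversed: Kcne1l in the muscle difference between stages, at -0.91 with the spots highest in muscle genes. The cause of these changes was not tested. Of the leading called members, 16 of 20 kept their call in every alternative for stage, 11 of 20 for CaV1.1-/- at E18.5, 0 of 5 at E14.5 and 2 of 6 for the cKO. These tallies do not hold for calls as fitted on the contractile gene scale. There 4 of 20 named members changed sign for stage and 4 of 20 for CaV1.1-/- at E18.5. Not run were the E18.5 regions and fiber types without 1 control, which leaves 1 section, and CaV1.1-/- at E14.5 within 1 Space Ranger version. Genes of few UMIs had wide intervals, and 21 members fell under the filter in muscle.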
